A study of Rattus norvegicus with 28 samples.

Results

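The genes described here encode 10 enzymes that make serine, carry its carbon through the folate cycle and make asparagine, measured as RNA in a line of rat kidney fibroblasts, NRK-49F. They are Phgdh, Psat1 and Psph of serine synthesis, Shmt1 and Shmt2 of serine cleavage, Mthfd1, Mthfd2, Mthfd1l and Aldh1l2 of the folate cycle, and Asns, the asparagine synthetase. They were listed by name with no cut on their values, but earlier results of these data were known when they were chosen. All 10 were found among the 30178 genes of the expression table. Each of the 10 passed the filter on low values (at least 1 FPKM in at least 2 libraries), which 12315 genes passed, and the lowest value of any of them in any library was 8.96 FPKM. FPKM are fragments per unit of gene length and of library size, so levels can be set beside each other between genes.

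The study held 4 groups of 2 RNA-seq libraries each. In the first, TGF-β1, the cytokine that turns fibroblasts into matrix-producing myofibroblasts, was given for 48 h together with an siRNA, a short RNA that lowers its target, directed at the homeobox gene Hoxc8 (siHoxc8). In the second it was given for 48 h in medium with restricted methionine (MetR), in the third it was given for 48 h alone, and the fourth was control cells, for which the labels give no time. Per the labels, cells were kept for 24 h in 0.2% serum before treatment, and TGF-β1 is listed at 5 ng per uL, as the labels print the unit. Methionine is listed at 30 uM in the MetR medium and at 200 uM in its control medium, which was prepared from salts, vitamins, amino acids and dialyzed serum. The labels do not say whether the TGF-β and control groups were kept in that control medium or in the DMEM used for growth, so a change of medium and the restriction of methionine cannot be told apart. They name no control siRNA for the TGF-β group, so the transfection and the loss of Hoxc8 cannot be told apart either. Separate cultures are not stated for replicate libraries, and p-values then reflect only how far these libraries spread, which may be technical. The series also holds 20 chromatin samples, not analysed here.

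Serine is built from the glycolytic intermediate 3-phosphoglycerate in a chain of steps catalysed by Phgdh, Psat1 and Psph. Serine hydroxymethyltransferases then split serine into glycine and a carbon unit held on folate, Shmt2 in mitochondria and Shmt1 in the cytosol. In mitochondria the carbon unit is oxidised by Mthfd2 and released as formate by Mthfd1l, or burnt to carbon dioxide by Aldh1l2, and in the cytosol Mthfd1 takes formate up again for the synthesis of purines, thymidylate and methyl groups. Glycine is the most common residue of collagen, and the folate cycle feeds the methionine cycle through methionine synthase. Many of these genes, Asns among them, are known targets of the transcription factor ATF4 in mammalian cells short of amino acids.

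The libraries held between 15118113 and 20146870 reads as recovered from the FPKM steps, and the 10 genes had between 356 reads (Shmt1) and 13220 reads (Shmt2) in a library. The siRNA target Hoxc8 stood at 0.463 and 0.0771 FPKM in the siHoxc8 libraries, 0.417 and 0.614 in the MetR libraries, 4.32 and 5.01 in the TGF-β libraries, and 1.12 and 1.34 in the control libraries. It fell with siHoxc8 over TGF-β (-2.17 ± 0.19, adjusted p = 0.000182), as its label says, and also with MetR over TGF-β (-1.90 ± 0.19, adjusted p = 0.000272), so Hoxc8 was low in both groups. The MetR libraries were the least alike of any group. Over the 10 genes, the ratio of the higher to the lower replicate reached 2.05 in the MetR group (Aldh1l2), 1.08 in the siHoxc8 group (Psat1), 1.23 in the TGF-β group (Aldh1l2) and 1.16 in the control group (Mthfd1l). Of 8 fibroblast markers, 5 had at least 1 FPKM in at least 2 libraries, with Col1a1, Col3a1 and Vim high, while Thy1 was listed at 0 in every library and Dcn and Fap were near 0. The TGF-β libraries had lower median-ratio scaling factors (0.899 and 0.911) than the other 6 libraries (1.01 to 1.08), and the median log2 fold change of all tested genes was -0.19 for TGF-β over control, 0.18 for MetR over TGF-β and 0.13 for siHoxc8 over TGF-β. Each change of an enzyme gene is therefore read beside that median, and calls that change after median-ratio rescaling are named.

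Changes are given as log2 fold changes ± SE of FPKM + 1, which makes changes at low levels look smaller. A gene was called at an adjusted p under 0.05 by limma with Benjamini-Hochberg adjustment over all tested genes. With siHoxc8 over TGF-β alone, 9 of the 10 enzyme genes were called higher and 0 lower, where 28.1% of all tested genes were called higher and 15.7% lower. Their median change was 0.76, against 0.13 over all tested genes. With MetR over TGF-β alone, 5 were called higher and 2 lower, where 34.8% of all tested genes were called higher and 19.0% lower, and their median was 0.40, against 0.18 over all tested genes. With TGF-β over control, 1 was called higher and 2 lower, where 10.3% of all tested genes were called higher and 28.6% lower, and their median was -0.08, against -0.19. In either direction 9 of 10 were called with siHoxc8, 7 of 10 with MetR and 3 of 10 with TGF-β, where 43.8%, 53.9% and 38.9% of all tested genes were called, so the MetR and TGF-β counts were not far from those of all genes. After median-ratio rescaling 7 of the 10 were called higher and 0 lower for siHoxc8 over TGF-β, against 21% and 22.1% of all tested genes. For MetR over TGF-β 4 were then higher and 3 lower, against 25.7% and 26.5% of all tested genes. For TGF-β over control 3 were then higher and 2 lower, against 18.5% and 17.4%. Rescaling moved the share of all calls that were higher to 48.8% (64.1% before) for siHoxc8 over TGF-β, to 49.2% (64.7% before) for MetR over TGF-β and to 51.5% (26.5% before) for TGF-β over control. The siHoxc8 and MetR comparisons share the TGF-β libraries, so their values are set side by side and the direct comparison of both groups is given for each gene.

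**Figure D1:**
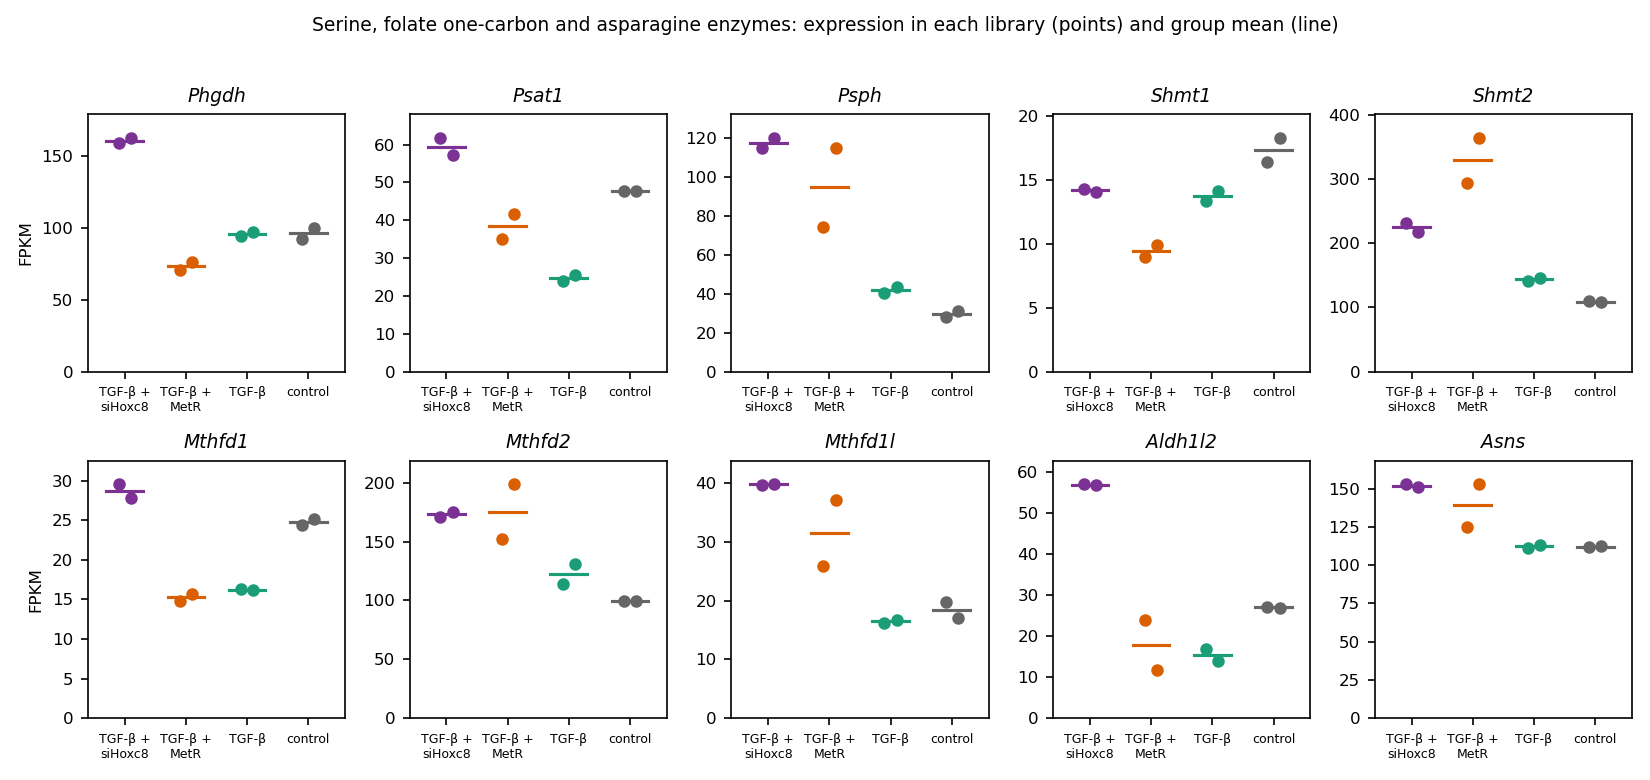
Expression of the 10 enzyme genes in FPKM (linear axes from 0), 1 panel per gene, with a point for each of the 2 libraries of a group and a line at the group mean, in the order siHoxc8, MetR, TGF-β and control. Phgdh, Mthfd1 and Aldh1l2 are high in the siHoxc8 libraries, where Aldh1l2 reached 57.0 and 56.7 FPKM, and Shmt2 is high in the MetR libraries, at 293 and 364 FPKM.

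In serine synthesis, all 3 enzyme genes rose with siHoxc8 over TGF-β, while with MetR the first gene of the chain fell and the other two rose. Phgdh, which oxidises 3-phosphoglycerate in the committing step, had 158 and 162 FPKM in the siHoxc8 libraries, 70.9 and 76.3 in the MetR libraries, 94.1 and 97.1 in the TGF-β libraries, and 92.1 and 100.0 in the control libraries. The siHoxc8 libraries lay above all others and the MetR libraries below all others, while TGF-β and control libraries overlapped. Phgdh rose with siHoxc8 over TGF-β by 0.74 ± 0.09 (1.68-fold, adjusted p = 0.000681) and fell with MetR over TGF-β, with a log2 fold change of -0.37 ± 0.09 (adjusted p = 0.0101). Between TGF-β and control the difference was -0.01 ± 0.09, with a 95% interval from -0.22 to 0.20. The fall with MetR was -0.59 ± 0.08 after median-ratio rescaling and did not pass the threshold in the fit with library weights or in a fit of those 2 groups alone, with adjusted p-values of 0.0518 and 0.0931.

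Psat1, the aminotransferase that takes its nitrogen from glutamate, was the serine synthesis gene that fell with TGF-β. It had 61.9 and 57.1 FPKM in the siHoxc8 libraries, 35.1 and 41.8 in the MetR libraries, 24.0 and 25.5 in the TGF-β libraries, and 47.9 and 47.8 in the control libraries, and no groups overlapped. It was lower with TGF-β than in control by a log2 fold change of -0.92 ± 0.11 (0.518-fold, adjusted p = 0.00076). Against TGF-β alone it rose with siHoxc8 by 1.23 ± 0.11 (2.40-fold, adjusted p = 0.000181) and with MetR by 0.61 ± 0.11 (1.55-fold, adjusted p = 0.0027). Under each of the 18 alternatives run, these 3 calls passed the threshold in the same direction.

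Psph, the phosphatase that releases free serine, followed another order. It had 115 and 120.4 FPKM in the siHoxc8 libraries, 74.5 and 115 in the MetR libraries, 40.6 and 43.7 in the TGF-β libraries, and 28.2 and 31.3 in the control libraries. It rose with siHoxc8 over TGF-β by 1.46 ± 0.19 (2.79-fold, adjusted p = 0.000819) and with MetR over TGF-β by 1.12 ± 0.19 (2.25-fold, adjusted p = 0.00199). The siHoxc8 and MetR libraries overlapped, and their difference of 0.34 ± 0.19 did not pass the threshold (adjusted p = 0.157, 95% interval from -0.09 to 0.77). With TGF-β over control the difference was 0.49 ± 0.19 (adjusted p = 0.0719), with both TGF-β libraries above both control libraries. After median-ratio rescaling this difference was 0.71 ± 0.17 (adjusted p = 0.0159). It passed the threshold under 8 of the 18 alternatives and missed it under 10.

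The 3 genes of the chain therefore stood in different proportions to each other in each group. Ratios of FPKM within a library do not depend on how libraries are scaled. The ratio of Psph to Phgdh was 0.725 and 0.741 in the siHoxc8 libraries, 1.05 and 1.51 in the MetR libraries, 0.432 and 0.450 in the TGF-β libraries, and 0.307 and 0.313 in the control libraries. The ratio of Phgdh to Psat1 was 2.56 and 2.84 in the siHoxc8 libraries, 2.02 and 1.83 in the MetR libraries, 3.92 and 3.80 in the TGF-β libraries, and 1.92 and 2.09 in the control libraries. Psph was thus higher than Phgdh per length in the MetR libraries alone of the 4 groups, and the MetR and control libraries overlapped in the ratio of Phgdh to Psat1. An exact permutation test of 2 libraries against 2 cannot go below p = 0.333, so no p is given for these ratios.

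The serine hydroxymethyltransferases moved in different directions. Shmt2, the mitochondrial enzyme, had 232 and 217 FPKM in the siHoxc8 libraries, 293 and 364 in the MetR libraries, 142 and 145 in the TGF-β libraries, and 109.7 and 108 in the control libraries, with no overlap between groups. Its level was the highest of the 10 genes in the siHoxc8, MetR and TGF-β libraries, while in the control libraries Asns was slightly higher. It rose with MetR over TGF-β by 1.18 ± 0.12 (2.29-fold, adjusted p = 0.000255) and with siHoxc8 over TGF-β by 0.64 ± 0.12 (1.56-fold, adjusted p = 0.00388). Between these groups it was lower with siHoxc8 than with MetR, by a log2 fold change of -0.54 ± 0.12 (adjusted p = 0.00622; 0.0524 without siHoxc8 replicate 2). With TGF-β over control it rose by 0.40 ± 0.12 (1.32-fold, adjusted p = 0.0316). That call was lost without either control replicate (adjusted p = 0.136 and 0.152), without either TGF-β replicate (0.0778 and 0.102), without either siHoxc8 replicate (0.0642 and 0.0643) and with no filter on low values (0.0555), while the log2 fold change lay between 0.34 and 0.62 over the 18 alternatives.

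Shmt1, the cytosolic enzyme, had the lowest group mean of the 10 genes in each of the 4 groups. It had 14.3 and 14.0 FPKM in the siHoxc8 libraries, 8.96 and 9.95 in the MetR libraries, 13.4 and 14.2 in the TGF-β libraries, and 16.4 and 18.3 in the control libraries. It fell with MetR over TGF-β, with a log2 fold change of -0.50 ± 0.11 (0.688-fold, adjusted p = 0.00619; 0.0587 in a fit of those 2 groups alone), and was the single gene of the 10 that was not called with siHoxc8 over TGF-β (0.04 ± 0.11, 95% interval from -0.21 to 0.29). With siHoxc8 over MetR it was higher by 0.54 ± 0.11 (adjusted p = 0.00423). With TGF-β over control the difference was -0.31 ± 0.11 (adjusted p = 0.0517), and after median-ratio rescaling it was -0.11 ± 0.10 (adjusted p = 0.444). It passed the threshold under 3 of the 18 alternatives and missed it under 15.

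The ratio of Shmt2 to Shmt1 within a library was 16.2 and 15.5 in the siHoxc8 libraries, 32.7 and 36.6 in the MetR libraries, 10.6 and 10.3 in the TGF-β libraries, and 6.69 and 5.88 in the control libraries. No groups overlapped, and the ratio was highest with MetR. The bases upstream of the Shmt2 and Shmt1 starts are shown because these counterparts moved in opposite directions with MetR, and those of Mthfd2 because it holds the most CCAAT matches of the 8 promoters searched. They are from RefSeq on the rat build GRCr8, 250 bases up to the annotated start, written 5′ to 3′ on the strand of the gene, with motif matches in capitals (CACGTG, and CCAAT on either strand). The windows are chr7:65249568-65249817 for Shmt2, chr10:45990342-45990591 for Shmt1 and chr4:117380351-117380600 for Mthfd2, all on the minus strand.
Shmt2: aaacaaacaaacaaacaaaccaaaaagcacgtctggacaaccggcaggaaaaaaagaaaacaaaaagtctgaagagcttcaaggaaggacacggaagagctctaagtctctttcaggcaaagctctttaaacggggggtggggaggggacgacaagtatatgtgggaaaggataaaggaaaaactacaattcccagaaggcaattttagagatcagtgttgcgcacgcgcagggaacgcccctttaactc
Shmt1: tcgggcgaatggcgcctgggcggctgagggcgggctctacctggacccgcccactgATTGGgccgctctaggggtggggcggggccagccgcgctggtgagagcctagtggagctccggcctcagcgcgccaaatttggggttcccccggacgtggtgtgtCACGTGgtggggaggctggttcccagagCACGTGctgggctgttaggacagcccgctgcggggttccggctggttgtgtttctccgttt
Mthfd2: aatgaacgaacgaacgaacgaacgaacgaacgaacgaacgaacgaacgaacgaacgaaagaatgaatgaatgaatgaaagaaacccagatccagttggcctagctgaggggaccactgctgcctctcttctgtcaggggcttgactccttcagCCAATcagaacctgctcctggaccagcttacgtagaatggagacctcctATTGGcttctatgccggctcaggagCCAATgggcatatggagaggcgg

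Motifs were searched on both strands in the 300 bases from 250 before to 50 after the start, for the 8 of the 10 genes with a promoter in the table (Mthfd1 and Aldh1l2 have no entry). TGATGNAA, the core of the element through which ATF4 and C/EBP factors are known to act, was found in 0 of the 8, and in 3.98% of all 33469 promoters of that length. CACGTG, the E-box bound by the MYC and TFE families, was found in Shmt1 alone, at -89 and -61 from the start, and in 6.42% of all promoters. CCAAT, the box bound by NF-Y, was found in Phgdh, Psat1, Shmt1 and Mthfd2 (4 of 8), and in 37.5% of all promoters. CCAAT was added to the search after the sequences had been read. Mthfd2 held it at -97, -48 and -23, Psat1 at -155 and -125, Phgdh at -204 and Shmt1 at -194, each position being the first base of the match counted back from the start, and no matches overlapped. For Psat1 and Asns the start used lies over 50 bases inside the annotated gene, so sequence further upstream was not searched. A match is a description of letters, and no match says only that these letters are not in this window.

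**Figure D2:**
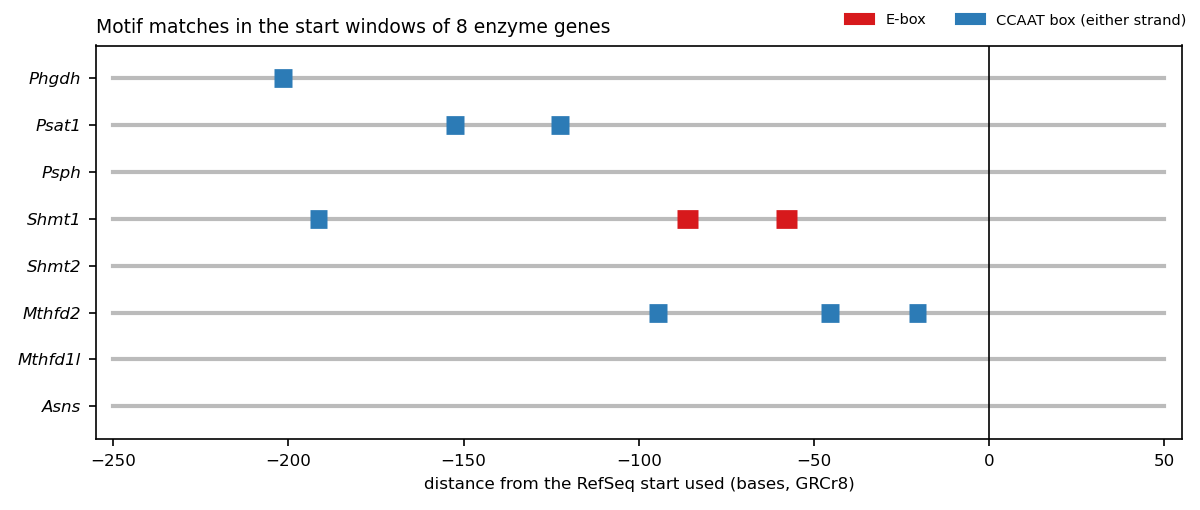
Positions of the motif matches in the 8 promoters of RefSeq, in bases from the annotated start (250 before to 50 after), 1 row per gene. Shmt1 holds both CACGTG matches, at -89 and -61, and Mthfd2 holds 3 CCAAT matches.

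Of the mitochondrial folate enzymes, Mthfd1l had its highest levels with siHoxc8 and Aldh1l2 stood apart in that group, while Mthfd2 differed little between siHoxc8 and MetR. Mthfd2, the dehydrogenase and cyclohydrolase of mitochondria, had 171 and 175 FPKM in the siHoxc8 libraries, 152 and 199 in the MetR libraries, 114 and 131 in the TGF-β libraries, and 99.1 and 99.4 in the control libraries. It was higher with siHoxc8 than with TGF-β by 0.50 ± 0.14 (1.41-fold, adjusted p = 0.0218) and with MetR than with TGF-β by 0.50 ± 0.14 (1.43-fold, adjusted p = 0.0167). After median-ratio rescaling both calls were lost, at 0.33 ± 0.12 (adjusted p = 0.0586) for siHoxc8 and 0.29 ± 0.12 (adjusted p = 0.079) for MetR, and both were lost without TGF-β replicate 1 (adjusted p = 0.11 and 0.0874). The MetR call was also lost in a fit of those 2 groups alone (adjusted p = 0.0829). The siHoxc8 call was also lost without either siHoxc8 replicate, with adjusted p-values of 0.0914 and 0.107. Between siHoxc8 and MetR the libraries overlapped and the difference was -0.01 ± 0.14, with a 95% interval from -0.33 to 0.31. Between TGF-β and control the difference was 0.30 ± 0.14 (adjusted p = 0.121), and after median-ratio rescaling it was 0.52 ± 0.12 and passed the threshold (adjusted p = 0.0137).

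Mthfd1l, the mitochondrial synthetase that releases formate, had 39.7 and 39.8 FPKM in the siHoxc8 libraries, 25.9 and 37.1 in the MetR libraries, 16.2 and 16.8 in the TGF-β libraries, and 19.8 and 17.1 in the control libraries. The siHoxc8 libraries lay above all others and the MetR libraries above TGF-β and control. It rose with siHoxc8 over TGF-β by 1.22 ± 0.16 (2.41-fold, adjusted p = 0.00103) and with MetR over TGF-β by 0.87 ± 0.16 (1.91-fold, adjusted p = 0.00341). The difference of siHoxc8 from MetR was 0.35 ± 0.16 (adjusted p = 0.109; 0.00381 without MetR replicate 2), and that of TGF-β from control was -0.15 ± 0.16 (95% interval from -0.53 to 0.23).

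Aldh1l2, which oxidises formyl-folate to carbon dioxide in mitochondria and yields NADPH, had 57.0 and 56.7 FPKM in the siHoxc8 libraries, 24.0 and 11.7 in the MetR libraries, 17.0 and 13.9 in the TGF-β libraries, and 27.1 and 27.0 in the control libraries. The siHoxc8 libraries lay far above the rest, and the MetR libraries lay on both sides of the TGF-β libraries. It rose with siHoxc8 over TGF-β by 1.82 ± 0.28 (3.69-fold, adjusted p = 0.00175), which was the highest log2 fold change of the 10 genes in that comparison, and over MetR by 1.70 ± 0.28 (3.19-fold, adjusted p = 0.00166). Between MetR and TGF-β the difference was 0.12 ± 0.28 (adjusted p = 0.73). That value rests on which MetR replicate is kept, since it was -0.37 without MetR replicate 1 (adjusted p = 0.0404) and 0.61 without MetR replicate 2 (adjusted p = 0.00742). With TGF-β over control it was -0.78 ± 0.28 (0.57-fold, adjusted p = 0.0586), with both TGF-β libraries below both control libraries. That fall passed the threshold under 6 of the 18 alternatives and missed it under 12. Among the 6 were library weights (adjusted p = 0.00552) and a fit of those 2 groups alone (0.00707). Among the 12 was median-ratio rescaling, after which the fall was -0.57 ± 0.29 (adjusted p = 0.172). Its cytosolic counterpart Aldh1l1 was at or below 0.114 FPKM in every library and was not tested.

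Mthfd1, the cytosolic enzyme that joins formate to folate and carries out the next conversions, had 29.5 and 27.8 FPKM in the siHoxc8 libraries, 14.8 and 15.7 in the MetR libraries, 16.3 and 16.2 in the TGF-β libraries, and 24.4 and 25.1 in the control libraries. It was low in the TGF-β and MetR groups and high in the siHoxc8 and control groups. It fell with TGF-β over control, with a log2 fold change of -0.58 ± 0.09 (0.657-fold, adjusted p = 0.00268). It rose with siHoxc8 over TGF-β by 0.78 ± 0.09 (1.76-fold, adjusted p = 0.000583). Between MetR and TGF-β the difference was -0.08 ± 0.09 (adjusted p = 0.467), and after median-ratio rescaling it was -0.29 ± 0.09 and passed the threshold (adjusted p = 0.0257). With siHoxc8 over MetR it was higher by 0.87 ± 0.09 (1.88-fold, adjusted p = 0.000235). Over control the siHoxc8 difference was 0.21 ± 0.09 (adjusted p = 0.101), and after median-ratio rescaling it was 0.26 ± 0.09 and passed the threshold (adjusted p = 0.0393).

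The ratio of Mthfd1l to Mthfd1, the mitochondrial to the cytosolic enzyme of formate, was 1.34 and 1.43 in the siHoxc8 libraries, 1.75 and 2.36 in the MetR libraries, 0.993 and 1.03 in the TGF-β libraries, and 0.812 and 0.681 in the control libraries. The groups did not overlap and stood in the same order as in the ratio of Shmt2 to Shmt1. Mthfd2l, a close relative of Mthfd2 with the same mitochondrial activities, had 1.57 and 1.74 FPKM in the siHoxc8 libraries, 6.20 and 7.47 in the MetR libraries, 1.59 and 1.72 in the TGF-β libraries, and 1.57 and 1.68 in the control libraries. It rose with MetR over TGF-β by 1.56 ± 0.14 (4.14-fold, adjusted p = 0.000187), while with siHoxc8 over TGF-β the difference was 0.00 ± 0.14. The ratio of Mthfd2 to Mthfd2l was 109 and 101 in the siHoxc8 libraries, 24.5 and 26.6 in the MetR libraries, 71.8 and 76.4 in the TGF-β libraries, and 63.2 and 59.1 in the control libraries, so Mthfd2 remained the higher of both in every library.

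**Figure D3:**
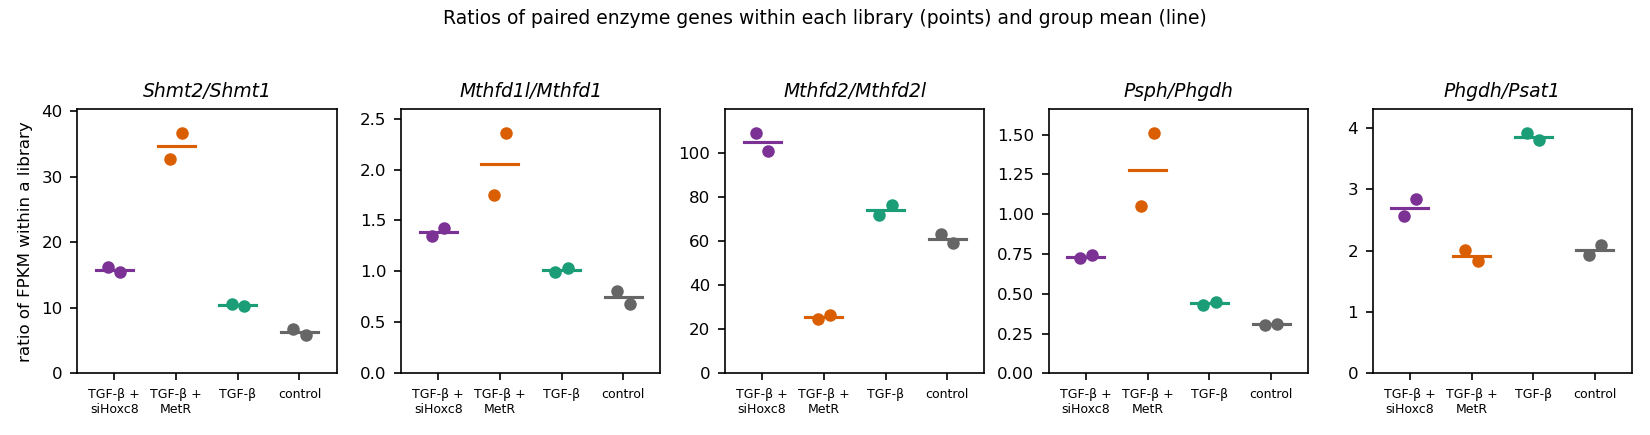
Ratios of FPKM between paired enzyme genes within each library (linear axes from 0), with a point per library and a line at the group mean, in the order siHoxc8, MetR, TGF-β and control. The ratio of Shmt2 to Shmt1 is highest in the MetR libraries, at 32.7 and 36.6, and the ratio of Mthfd2 to Mthfd2l is lowest there, at 24.5 and 26.6.

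Asns, which makes asparagine from aspartate with nitrogen from glutamine, varied least over the groups. It had 153 and 151 FPKM in the siHoxc8 libraries, 125 and 153 in the MetR libraries, 111 and 113 in the TGF-β libraries, and 112 and 112 in the control libraries. Its log2(FPKM + 1) spanned 0.46 over the 8 libraries, against 1.19 for Phgdh, 0.99 for Mthfd2 and 0.96 for Shmt1. It was higher with siHoxc8 than with TGF-β by 0.43 ± 0.11 (1.35-fold, adjusted p = 0.0154), a call lost after median-ratio rescaling (0.27 ± 0.09, adjusted p = 0.0527), without TGF-β replicate 1 (adjusted p = 0.0574) and without either siHoxc8 replicate (adjusted p = 0.0931 and 0.0808). Between MetR and TGF-β the difference was 0.30 ± 0.11 (adjusted p = 0.0501), and after median-ratio rescaling it was 0.09 ± 0.09 (adjusted p = 0.477). With quantile normalization, another scaling of the libraries, it was 0.32 (adjusted p = 0.0175). It passed the threshold under 4 of the 18 alternatives and missed it under 14. Leaving out MetR replicate 1 gave 0.44 (adjusted p = 0.00231), and leaving out MetR replicate 2 gave 0.16 (adjusted p = 0.108). TGF-β and control libraries overlapped, with a difference of 0.00 ± 0.11 (95% interval from -0.25 to 0.26).

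**Figure D4:**
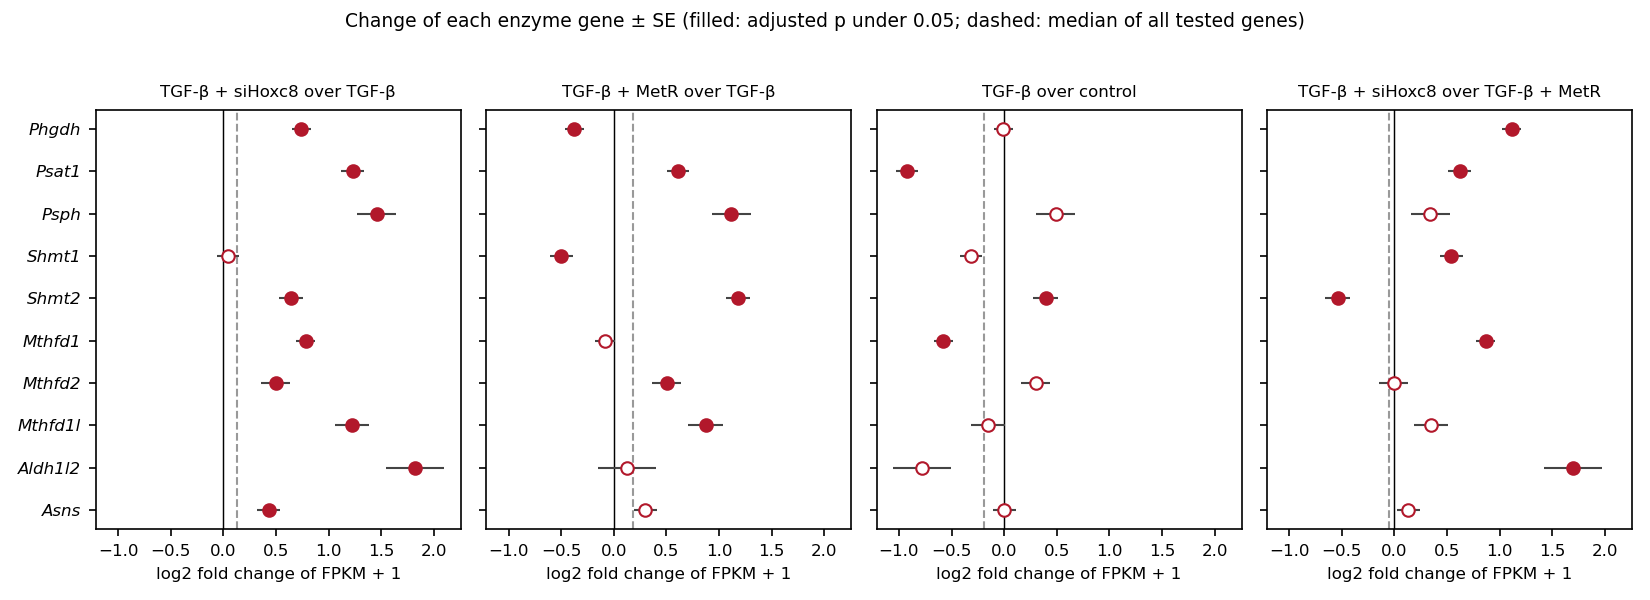
Log2 fold change of FPKM + 1 of each enzyme gene with its SE, 1 panel per comparison, filled where the adjusted p is under 0.05, with a dashed line at the median of all tested genes. With siHoxc8 over TGF-β all but Shmt1 are filled and to the right of 0, and with siHoxc8 over MetR Phgdh, Psat1, Shmt1, Mthfd1 and Aldh1l2 are higher and Shmt2 is lower.

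Set directly against MetR, siHoxc8 gave higher levels of 5 of the 10 genes and a lower level of 1, where 24.9% of all tested genes were called higher and 29.3% lower (54.2% in either direction). The 5 were Phgdh (1.11 ± 0.09, 2.18-fold, adjusted p = 8.01e-05), Psat1 (0.62 ± 0.11, 1.55-fold, adjusted p = 0.00237), Shmt1, Mthfd1 and Aldh1l2, and the 1 was Shmt2. Without MetR replicate 2, which had the higher value for 9 of the 10 genes, Psph, Mthfd1l and Asns were also called higher with siHoxc8, and 8 and 1 of the 10 were called. The other 4 genes, Psph, Mthfd2, Mthfd1l and Asns, did not pass the threshold, which does not show that they were alike.

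Against control cells, the siHoxc8 libraries had 8 of the 10 genes called higher and 0 lower, where 21.7% of all tested genes were called higher and 27.0% lower (48.7% in either direction). The highest changes were those of Psph (1.95 ± 0.19, 3.96-fold, adjusted p = 0.000193), Mthfd1l (1.07 ± 0.16, adjusted p = 0.00159), Aldh1l2 (1.05 ± 0.28, adjusted p = 0.0165) and Shmt2 (1.04 ± 0.12, adjusted p = 0.000396). The count was 5 without either control replicate or either siHoxc8 replicate, with Psat1, Aldh1l2 and Asns lost in each case, and 10 without either MetR replicate, with 9 higher and 1 lower. Against control, the MetR libraries had 5 called higher and 4 lower, where 28.0% of all tested genes were called higher and 29.3% lower (57.3% in either direction). Psph (1.61 ± 0.19, 3.19-fold, adjusted p = 0.000299) and Shmt2 (1.58 ± 0.12, 3.02-fold, adjusted p = 4.8e-05) rose the most, and Shmt1 (-0.81 ± 0.11, 0.545-fold, adjusted p = 0.000553) and Mthfd1 (-0.66 ± 0.09, 0.618-fold, adjusted p = 0.000689) fell the most. The calls for Psat1 (-0.31 ± 0.11, adjusted p = 0.0403) and Asns (0.30 ± 0.11, adjusted p = 0.0464) were close to the threshold and were lost under 9 and 11 of the 18 alternatives, and the count was 5 without control replicate 2.

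Within each library the enzyme genes took different ranks among the tested genes. Shmt2 stood at the 97.5 and 97.3 percentile in the siHoxc8 libraries, 98.6 and 98.9 in the MetR libraries, 96.1 and 95.7 in the TGF-β libraries, and 94.4 and 94.3 in the control libraries. Aldh1l2 stood at the 86.7 and 86.5 percentile in the siHoxc8 libraries, 68.3 and 46.7 in the MetR libraries, 62.5 and 57.2 in the TGF-β libraries, and 72.2 and 72.0 in the control libraries. Psph stood at the 94.2 and 94.6 percentile in the siHoxc8 libraries, 90.6 and 94.2 in the MetR libraries, 82.9 and 83.4 in the TGF-β libraries, and 73.3 and 75.7 in the control libraries. By rank, which library scaling does not move, Psph was thus higher in both TGF-β libraries than in both control libraries.

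Among other enzymes and carriers of the folate cycle, 14 of 18 listed genes were tested, of which 8 rose and 1 fell with siHoxc8 over TGF-β (median 0.48), and 9 rose and 1 fell with MetR over TGF-β (median 0.67). With TGF-β over control 0 rose and 4 fell (median -0.30). Of all tested genes 28.1% were called higher and 15.7% lower with siHoxc8 over TGF-β. The shares were 34.8% and 19.0% with MetR over TGF-β, and 10.3% and 28.6% with TGF-β over control. Slc25a32, the mitochondrial folate carrier, rose with siHoxc8 over TGF-β by 0.71 ± 0.12 (adjusted p = 0.00247), and Fpgs, which adds glutamates that hold folate in cells, by 0.80 ± 0.14 (adjusted p = 0.00304). Tyms, the thymidylate synthase, rose by 0.34 ± 0.10 (adjusted p = 0.0236), and that call was lost after median-ratio rescaling (adjusted p = 0.132). Mtr, the methionine synthase that takes its methyl group from folate, had 6.45 and 6.40 FPKM in the siHoxc8 libraries, 14.2 and 13.5 in the MetR libraries, 7.39 and 6.06 in the TGF-β libraries, and 7.50 and 7.60 in the control libraries, and rose with MetR over TGF-β by 0.95 ± 0.12 (2.06-fold, adjusted p = 0.000617). The siHoxc8 count of rises was 5 without TGF-β replicate 1, 4 without siHoxc8 replicate 1 and 5 without siHoxc8 replicate 2, and it was 4 with limma-voom on recovered reads. The TGF-β counts were 1 rise and 6 falls without either MetR replicate and in a fit of those 2 groups alone.

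Purine and thymidylate synthesis use the carbon units made by these enzymes, and 15 of their genes were tested. With siHoxc8 over TGF-β 9 rose and 1 fell (median 0.60), where 28.1% and 15.7% of all tested genes did. With MetR over TGF-β 6 rose and 3 fell (median 0.45), not far from the 34.8% and 19.0% of all tested genes. With TGF-β over control 1 rose and 6 fell (median -0.20), where 10.3% and 28.6% of all tested genes did. Tk1, the thymidine kinase of dividing cells, had 45.8 and 48.4 FPKM in the siHoxc8 libraries, 10.3 and 10.0 in the MetR libraries, 9.92 and 12.2 in the TGF-β libraries, and 40.0 and 42.1 in the control libraries. Ppat, the first enzyme of purine synthesis, had 52.9 and 52.7 FPKM in the siHoxc8 libraries, 18.4 and 24.3 in the MetR libraries, 15.8 and 16.9 in the TGF-β libraries, and 15.2 and 15.6 in the control libraries, and rose with siHoxc8 over TGF-β by 1.63 ± 0.13 (3.23-fold, adjusted p = 0.000128). With MetR over TGF-β, Impdh2 (-1.70 ± 0.10) and Impdh1 (-1.30 ± 0.08), which make guanine nucleotides, fell, while Pfas (1.07 ± 0.12) and Adsl (1.02 ± 0.13) of the purine pathway rose. The siHoxc8 count of rises was 6 without siHoxc8 replicate 1.

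Serine and glycine are also used and carried by other proteins, and 14 of 17 listed genes of these were tested. With siHoxc8 over TGF-β 6 rose and 5 fell, and with MetR over TGF-β 6 rose and 1 fell. Of all tested genes 28.1% were called higher and 15.7% lower with siHoxc8 over TGF-β. The shares were 34.8% and 19.0% with MetR over TGF-β, and 10.3% and 28.6% with TGF-β over control. Slc1a5, a carrier of neutral amino acids, had 109 and 119 FPKM in the siHoxc8 libraries, 30.7 and 48.2 in the MetR libraries, 43.5 and 41.8 in the TGF-β libraries, and 44.5 and 43.5 in the control libraries, and rose with siHoxc8 over TGF-β by 1.40 ± 0.19 (adjusted p = 0.000992). Sfxn1, which carries serine into mitochondria, rose with siHoxc8 over TGF-β by 1.07 ± 0.09 (2.14-fold, adjusted p = 0.000166) and fell with TGF-β over control (-0.56 ± 0.09, adjusted p = 0.00307). Of 5 tested genes of glycine cleavage and choline-derived carbon donors, 2 rose and 1 fell with siHoxc8 over TGF-β, 3 rose and 0 fell with MetR over TGF-β, and 0 rose and 2 fell with TGF-β over control. Sardh, which takes a carbon unit from sarcosine, was called in each of the 3, with 20.0 and 19.1 FPKM in the siHoxc8 libraries, 18.0 and 17.4 in the MetR libraries, 10.9 and 10.1 in the TGF-β libraries, and 19.2 and 19.4 in the control libraries. In the list of glycine cleavage and donors, the siHoxc8 counts were 1 rise and 0 falls without TGF-β replicate 1 or without siHoxc8 replicate 1. Its TGF-β counts over control were 0 rises and 1 fall when any 1 of the control or TGF-β libraries was left out, and likewise after median-ratio rescaling. In the list of serine and glycine use, the siHoxc8 counts were 4 rises and 3 falls without TGF-β replicate 1, 3 rises and 1 fall without siHoxc8 replicate 1, and 3 rises and 2 falls without siHoxc8 replicate 2.

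Around Asns, 16 genes of asparagine, aspartate, glutamine and proline metabolism were tested. With siHoxc8 over TGF-β 7 rose and 2 fell, where 28.1% and 15.7% of all tested genes did. With MetR over TGF-β 5 rose and 6 fell, where 34.8% and 19.0% of all tested genes did. With TGF-β over control 3 rose and 3 fell, where 10.3% and 28.6% of all tested genes did. The TGF-β counts were 2 rises and 1 fall without control replicate 1 or without control replicate 2. Got2, the mitochondrial enzyme that makes aspartate, had 209 and 206 FPKM in the siHoxc8 libraries, 111 and 129 in the MetR libraries, 75.5 and 80.2 in the TGF-β libraries, and 56.4 and 54.0 in the control libraries, and rose with siHoxc8 over TGF-β by 1.40 ± 0.10 (2.67-fold, adjusted p = 8.26e-05). Gpt2, the mitochondrial alanine aminotransferase, rose with siHoxc8 over TGF-β by 1.61 ± 0.17 (3.16-fold, adjusted p = 0.000424). Both siHoxc8 libraries lay above all others for Got2.

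Of ATF4 and its known targets outside the 10 genes, 25 were tested. With MetR over TGF-β 20 rose and 1 fell (median 1.14), where 34.8% and 19.0% of all tested genes did. With siHoxc8 over TGF-β 18 rose and 2 fell (median 0.60), where 28.1% and 15.7% of all tested genes did. With TGF-β over control 4 rose and 5 fell (median -0.05), where 10.3% and 28.6% of all tested genes did. Atf4 itself had 433 and 430 FPKM in the siHoxc8 libraries, 542 and 738 in the MetR libraries, 281 and 319 in the TGF-β libraries, and 287 and 277 in the control libraries. It rose with MetR over TGF-β by 1.07 ± 0.15 (2.13-fold, adjusted p = 0.001) and with siHoxc8 over TGF-β by 0.52 ± 0.15 (adjusted p = 0.0261), a call lost after median-ratio rescaling (adjusted p = 0.0653). Stc2, a secreted stress glycoprotein, rose with MetR over TGF-β by 3.05 ± 0.20 (8.78-fold, adjusted p = 7.03e-05), and Trib3, a pseudokinase that restrains ATF4, by 2.33 ± 0.19 (5.26-fold, adjusted p = 0.000122). Slc7a5, a carrier of large neutral amino acids, had 295 and 299.6 FPKM in the siHoxc8 libraries, 228 and 332 in the MetR libraries, 49.0 and 43.4 in the TGF-β libraries, and 57.5 and 61.6 in the control libraries. Atf5 had 72.9 and 78.5 FPKM in the siHoxc8 libraries, 328 and 242 in the MetR libraries, 310 and 308 in the TGF-β libraries, and 325 and 307 in the control libraries, and was 1 of the 2 falls with siHoxc8. With siHoxc8 over MetR 3 of the 25 were higher and 14 lower (median -0.55). Of the 10 enzyme genes 5 were higher and 1 lower (median 0.44). Of all tested genes 24.9% were higher and 29.3% lower in that comparison (median -0.06). Whether ATF4 has a part in the enzyme genes' changes was not tested. The siHoxc8 count of rises over TGF-β was 11 without TGF-β replicate 1, 9 without siHoxc8 replicate 1 and 11 without siHoxc8 replicate 2, and the TGF-β counts over control were 4 rises and 10 falls without MetR replicate 1, 4 and 11 without MetR replicate 2, 2 and 2 without control replicate 1, and 2 and 3 without control replicate 2.

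In the methionine cycle, 5 genes were tested. With MetR over TGF-β 2 rose and 1 fell, where 34.8% and 19.0% of all tested genes did. With siHoxc8 over TGF-β 1 rose and 1 fell, where 28.1% and 15.7% of all tested genes did. Both siHoxc8 calls were lost when any 1 of the control, TGF-β or siHoxc8 libraries was left out. Mat2a, which makes S-adenosylmethionine, had 70.8 and 73.4 FPKM in the siHoxc8 libraries, 293 and 402 in the MetR libraries, 69.8 and 74.6 in the TGF-β libraries, and 66.6 and 63.2 in the control libraries. Like Mthfd2l and Mtr, Mat2a was high in the MetR libraries and at about the same level in the other 6.

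**Figure D5:**
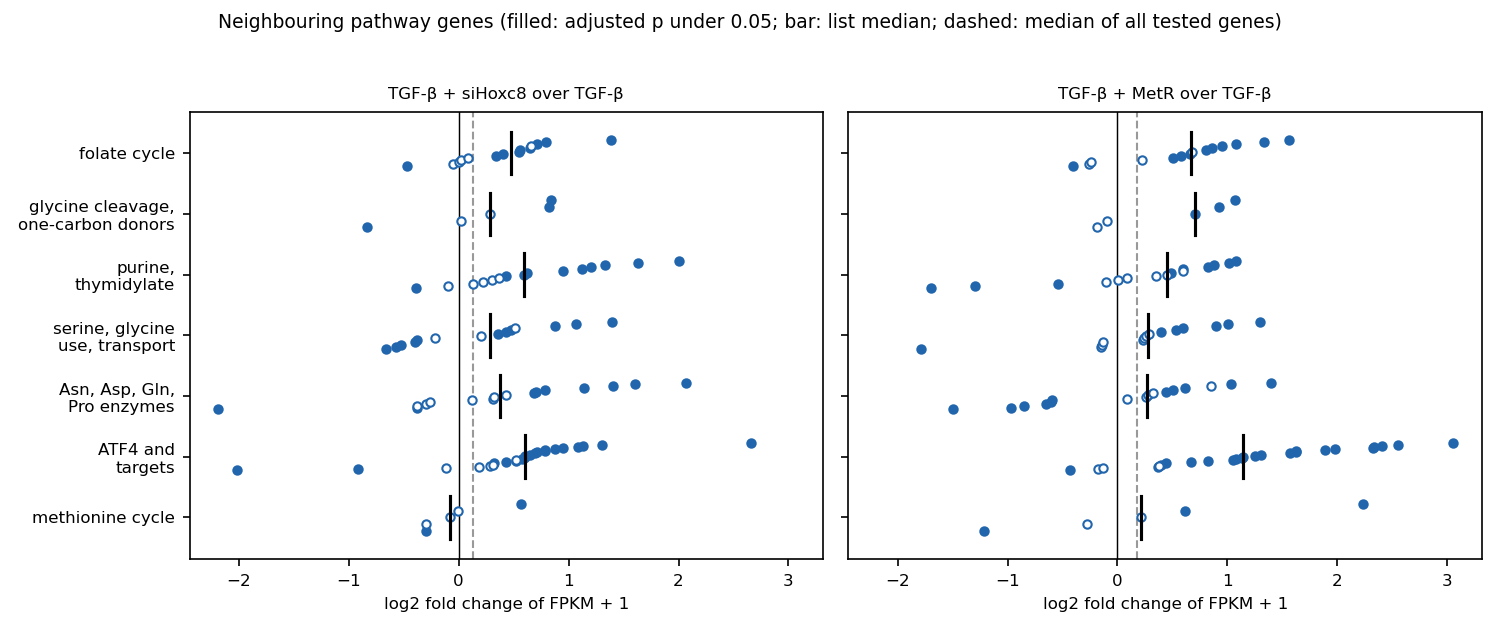
Log2 fold change of FPKM + 1 of each tested gene of 7 neighbouring lists, a row per list, for siHoxc8 over TGF-β and for MetR over TGF-β, filled where the adjusted p is under 0.05, with a bar at the list's median and a dashed line at the median of all tested genes. The list of ATF4 and its targets has its median at 0.60 with siHoxc8 and at 1.14 with MetR.

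Markers of other cell types were checked beside these results. Of 8 kidney epithelial markers, 3 had at least 1 FPKM in at least 2 libraries, and their summed level was 646 to 686 FPKM in the siHoxc8 libraries, 234 to 256 in the MetR libraries, 195 to 226 in the TGF-β libraries and 239 to 242 in the control libraries. Nearly all of that sum was Krt8, while Epcam was listed at 0 in every library and Krt18 and Cdh1 were near 0. The sum moved with siHoxc8, the group in which 9 of the 10 enzyme genes were higher, and its part in that result was not tested. In bulk RNA, fewer cells of a type and less RNA per cell cannot be told apart. The 8 fibroblast markers summed to 9354 to 9874 FPKM in the siHoxc8 libraries, 5622 to 8246 in the MetR libraries, 11270 to 12040 in the TGF-β libraries and 6285 to 6350 in the control libraries, and the part of that in the results was not tested either. The 4 endothelial markers in the table summed to less than 1 FPKM in every library, and the 5 immune markers to between 0.416 and 2.68 FPKM, nearly all of it Cd68.

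Genes with the pattern most like that of 4 of the enzyme genes were found by the root mean square difference of centred log2(FPKM + 1) over the 8 libraries, among 8417 genes with a mean of at least 5 FPKM. For Asns they were Sfpq (0.036), Immt (0.049) and Cnot9 (0.053). For Phgdh they were Surf4 (0.071), Fut8 (0.080) and Mdh1 (0.090). For Mthfd2 they were Gpaa1 (0.043), Pinx1 (0.051) and Txn2 (0.061), and for Shmt1 they were Cdc23 (0.052), Mapk14 (0.054) and Elp2 (0.072). Surf4, for example, had 19.1 and 18.3 FPKM in the siHoxc8 libraries, 7.92 and 7.87 in the MetR libraries, 11.3 and 10.9 in the TGF-β libraries, and 10.2 and 10.1 in the control libraries, high and low in the same groups as Phgdh.

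RefSeq names 6 pseudogenes after Phgdh and 1 each after Psat1, Shmt2 and Mthfd1, so for these 4 genes the split of reads between near-identical copies is uncertain. How strand was treated in the counting is not given in the sources, so reads of an overlapping gene on the other strand could not be told apart from those of any of the 10.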

How the data were processed

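The values are FPKM per gene symbol, deposited by the authors as 1 table that covers the 8 RNA-seq libraries. The submitters' processing notes name the build rn6 and the tools featureCounts, deepTools, Bowtie2 2.3.5.1 and Trim Galore, and give no roles. Which aligner and annotation the RNA-seq values rest on is not given in the sources. The 13 genes encoded by mitochondrial DNA have 0 throughout, and a 0 is therefore given as a listed value.

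The FPKM of a library proved to be multiples of a step per gene, from which reads were recovered (whole within 0.02 reads for 100.0% of 19435 genes), and these served for depth. A gene above 0 in only 1 library gives whole reads by construction, so that share is partly fixed in advance. The fewest reads that fit were taken, so recovered reads may be too low. Groups were taken from the sample titles. Log2(FPKM + 1) was fitted with limma 3.58.1 in R 4.3.3, with 1 coefficient per group over all 8 libraries, a trend of the prior variance and no covariate (4 residual and 3.47 prior degrees of freedom), since 2 libraries leave too little to fit a group alone. The filter kept genes reaching 1 FPKM in 2 or more libraries, and p-values are two-sided and adjusted within each of 6 comparisons. The procedure was tested on simulated data. The 10 genes, the 7 neighbouring lists and the tests were chosen with earlier results of these data known. From each list up to 4 called genes were named by size of change, with Mthfd2l, Aldh1l1, Atf4, Tyms, Mtr and Mat2a named whatever their result; some genes that this rule names are not reported here. Promoters came from RefSeq (GRCr8). Alternatives changed the pseudocount, the filter, the scaling, the weights, the variance trend, the libraries in the fit and a replicate block. Replicate numbers are not stated to pair the libraries, so the main fit used no pairing.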

Additional observations from a re-analysis of the deposited data

How the results depend on the processing

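The 18 alternatives gave 1080 values for the 10 genes over 6 comparisons. Of these, 965 kept their side of the threshold, 66 lost the call, 48 gained one and 1 reversed. The 965 include values that changed direction with no call in the main fit or in the alternative. A reversal is a change of direction with a call in at least 1 of these fits. The reversed one was Aldh1l2 with MetR over TGF-β, at -0.37 without MetR replicate 1, against 0.61 without MetR replicate 2. The number of the 10 genes called with TGF-β over control was 3. It became 5 under median-ratio rescaling, under the replicate block, with only the 2 groups compared and with limma-voom on recovered reads. With library weights it was 7. Over all 12315 tested genes the count was 4792, and 4414, 4750, 5357, 4435 and 5747 under these alternatives in that order. With MetR over TGF-β 6634 of all tested genes were called, and 4674 with only the 2 groups compared. The number of the 10 genes called with MetR over TGF-β was 7, and 4 with only the 2 groups compared. Leaving out each library in turn gave 2 to 7 for TGF-β over control, 6 to 9 for MetR over TGF-β, 7 to 9 for siHoxc8 over TGF-β, 5 to 9 for MetR over control, 5 to 10 for siHoxc8 over control and 5 to 9 for siHoxc8 over MetR. Same-numbered replicates of the TGF-β and MetR groups deviated together weakly (correlation 0.202). For the other pairs of groups the correlations lay between -0.0196 and 0.0239. With the replicate number as a block, the counts of the 5 comparisons listed after TGF-β over control were 7, 9, 8, 7 and 6 in that order. Without control replicate 1 or 2 the count of all genes called with TGF-β over control was 2320 or 2472, against 4792, and with siHoxc8 over TGF-β it was 3152 or 3367 without siHoxc8 replicate 1 or 2, against 5394. With siHoxc8 over control it was 3843, 3893, 3893 or 3982 without control replicate 1 or 2 or siHoxc8 replicate 1 or 2, against 5999. The cause was not tested. A fit that leaves 1 library in a group assumes that it varies like the other groups. The named genes of the neighbouring lists gave 1655 values. Of these, 1563 kept their side of the threshold, 84 lost the call, 8 gained one and 0 reversed. They were counted in the same way, so any change of direction with no call is among the 1563. The voom fit used median-ratio library sizes and was added after seeing the data, and the 2 planned count models were not run because the deposited unit is FPKM. With 2 libraries per group a difference missed by the test is not shown to be absent.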
